A study of Mus musculus and Homo sapiens with 34 samples.

Results

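The 41 genes described here encode the enzymes, carriers and lipid-droplet proteins of fatty acid oxidation, peroxisomes and ketogenesis. They were chosen by symbol: every row of the mouse count tables named for a member, and in the human tables every row with the same symbol in upper case. All 41 were found among the 21401 genes of the mouse tables, and 40 among the 27030 genes of the human tables, where no row is named ACAA1A. Ehhadh was missing from the 1027B table.

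The study sequenced RNA from 34 libraries of lung adenocarcinoma cultures in 17 groups, with 2 libraries per group. The 3154 organoids are mouse lung organoids with the alleles p53frt, Rosa-FSF-CreERT2 and Hnf4aflox and an oncogene allele. 4-hydroxytamoxifen (4OHT) switches on their CreERT2 recombinase, which deletes Hnf4a, and the ethanol controls carry the same alleles. In the first 3154 experiment, 2 mM 4OHT or ethanol was given for 2 days and RNA was taken 2 weeks later. In the other, a 48-hour experiment, ethanol or 4OHT was combined with vehicle or with 3 nM MRTX1133, a small-molecule inhibitor. The labels give neither the 4OHT dose of that experiment nor whether 4OHT came before the drug, so how long Hnf4a had been deleted when the drug was added is not known. 4OHT itself and the loss of Hnf4a cannot be told apart in these groups. The mouse 1027B organoids and the mouse lung line 3311 share that oncogene allele and p53frt, Rosa-FSF-CreERT2, Foxa1flox and Foxa2flox, and no 4OHT is named for them. The 1027B organoids received vehicle, 10 nM trametinib (an inhibitor of the kinases MEK1 and MEK2) or 20 nM MRTX1133 for 48 hours, and 3311 cells received vehicle or 50 nM trametinib for 48 hours. 2 human lung adenocarcinoma lines, H358 and H1651, were each grown for 48 hours with 20 nM trametinib or with its vehicle. In H1651 a lentiviral HNF4A construct was switched on for 7 days by doxycycline at 1 µg/mL, and the labels name that construct for the doxycycline libraries alone, not for their untreated controls. Each culture is a single line, and the labels do not say that replicates were separate cultures, so p-values measure the spread between these libraries.

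Long-chain fatty acids are activated to acyl-CoA, carried into mitochondria as carnitine esters and shortened by repeated beta-oxidation, whose electrons pass through the electron transfer flavoprotein to the respiratory chain. Peroxisomes shorten very long, branched and bile-acid side chains by a parallel route that makes hydrogen peroxide, which catalase removes. In liver, HNF4A and PPARA are known regulators of these genes, and acetyl-CoA from oxidation is turned into ketone bodies. In the lung, alveolar type 2 cells use lipid pathways for surfactant.

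The libraries held 19692517 to 45284286 counts each, and no pair of replicates agreed within sampling noise. Hnf4a, the deleted gene, was at 315 and 427 CPM (counts scaled to library size with TMM factors) in the 2-week ethanol libraries and at 53.5 and 68.0 in the 4OHT libraries. In the 48-hour experiment it was at 221 and 230 CPM in ethanol with vehicle and at 49.4 and 50.4 in 4OHT with vehicle. HNF4A had 0 counts in all 4 H358 libraries, which allows up to 3 counts, or 0.0645 to 0.118 CPM. Epithelial markers summed to 4073 to 11416 CPM in every library, so the epithelial label held in each. The lung factor gene Nkx2-1 was at group means of 189 to 422 CPM in the mouse cultures and NKX2-1 at 27.4 to 173 in the human lines. Surfactant genes other than Sftpb were near 0 in 3311 (Sftpc 0.06 and 0.34 CPM), and SFTPB was at most 0.69 CPM in the human lines. A gene is called where the edgeR quasi-likelihood test gives a Benjamini-Hochberg adjusted p under 0.05 over all genes of its table. Genes given by library below were picked from these calls. With 2 libraries per group, a lack of overlap between their groups is a description and adds no support to the call.

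Promoter sequences are shown for the members that hold a binding motif of the HNF4 or PPAR type, because the Hnf4a deletion is tested on these genes. RefSeq promoters (GRCm38.p6, 250 bases before to 50 after the start) were found for 36 of the 41 members. The direct repeat AGGTCANAGGTCA, called DR1 and known to be bound by PPAR-RXR and HNF4 dimers, was searched on both strands with up to 2 mismatches. It was in 5 of the 36 members, 13.9%, and in 4.4% of all 27025 genes with a promoter. The HNF4 motif CAAAGTCCA, searched on both strands without mismatch, was in 1 of the 36 members, Pipox, and in 0.555% of all genes. No member's promoter held both motifs. The capitals mark the match and each line reads 5′ to 3′ along the gene.
Acox2 (chr14:8258809-8258838, minus strand, match 9 to 21 bases after the start): gctgtcccAGGACAGAGGTGAgtcaagagt
Cat (chr2:103485336-103485365, minus strand, match 204 to 192 bases before the start): actctcagAGGTCAGAGAACAccagcaggg
Etfa (chr9:55512299-55512328, minus strand, match 77 to 65 bases before the start, on the opposite strand): gcacacccTTACCTTTGCCCTactcccaag
Plin2 (chr4:86670263-86670292, minus strand, match 225 to 213 bases before the start, on the opposite strand): agctttcaGGACCCCTGACCTaagtcagac
Slc25a20 (chr9:108662134-108662163, plus strand, match 6 to 18 bases after the start): ctgaatgtAGGTGAAAGGTCGgcggagccg
Pipox (chr11:77893838-77893867, minus strand, HNF4 motif 15 to 23 bases after the start, on the opposite strand): ctagtttagcTGGACTTTGcctccctcctc
A match is a run of letters and not a measured binding site. Acox2 and Cat fell after Hnf4a deletion and Etfa fell in 1 of the deletion comparisons, while Slc25a20 was not called in any deletion comparison and Plin2 rose in the 48-hour experiment. Pipox was lower at 2 weeks, where it passed the count filter through the ethanol libraries alone and its call is a description. It was not tested in the 48-hour experiment.

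Hadha and Hadhb, the alpha and beta subunits of the mitochondrial trifunctional protein, are transcribed in opposite directions from neighbouring starts on chromosome 5. The 85 bases that lie outside both genes in RefSeq and GENCODE (GRCm38.p6, chr5:30155163-30155247, plus strand) are shown because both genes start beside them. They hold 69.4% G and C, and nothing in them is marked. The log2 changes of the pair are given below, and their difference was not tested.
Hadha and Hadhb: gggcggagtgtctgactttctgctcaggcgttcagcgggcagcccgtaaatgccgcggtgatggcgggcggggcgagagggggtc

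**Figure D1:**
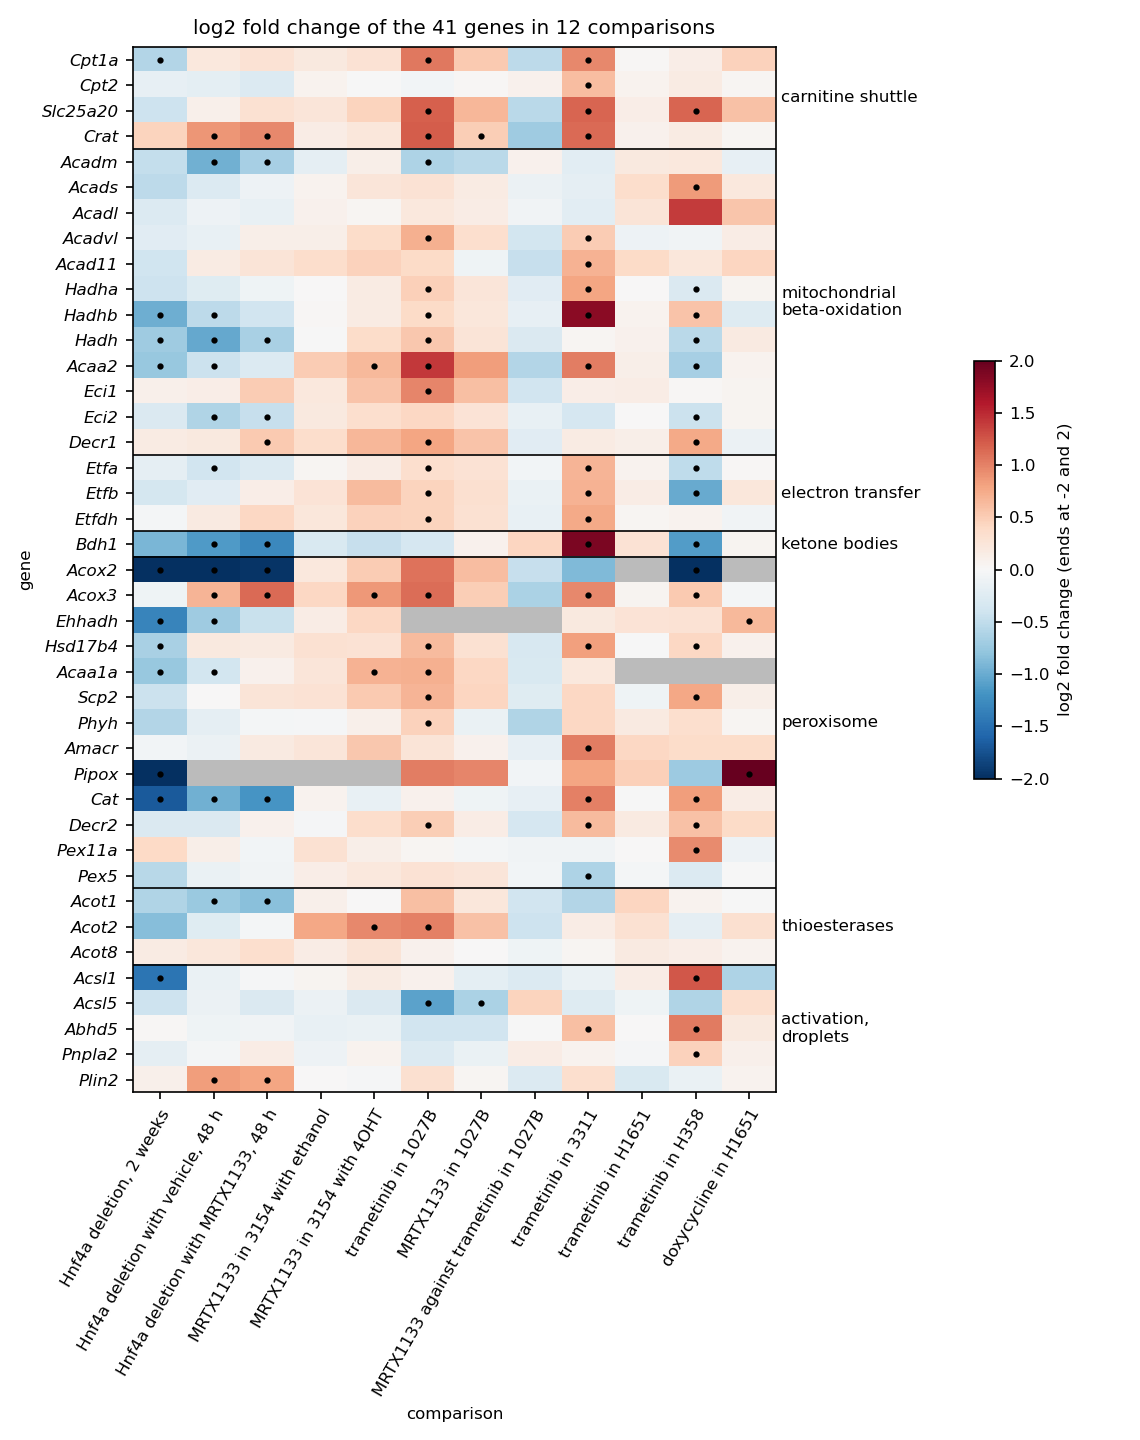
The map plots the log2 fold change of each of the 41 genes (rows, grouped by role) in 12 comparisons (columns), with colours that end at -2 and 2, dots for genes called at an adjusted p under 0.05 and grey for genes not tested. Under trametinib 20 genes were called higher in 1027B and 19 in 3311, while after 2 weeks of Hnf4a deletion 11 were called lower and 0 higher.

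At 2 weeks after Hnf4a deletion in 3154 organoids, 6 of 13 peroxisomal members and 3 of 12 members of mitochondrial beta-oxidation were called lower. Of 41 members tested, 11 fell, which is 26.8%, where 5.78% of all 14492 genes tested were called lower. None rose, where 4.03% of all genes were called higher; 1 member had a higher level at an unadjusted p under 0.05 (13.2% of all genes), and DESeq2 called 0 higher and 15 lower (9.54% of all genes lower). The median member changed by -0.42 on the log2 scale, and the median of all genes by 0.02.

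The peroxisome held 6 of the 11, of 13 peroxisomal members tested. Acox2, the oxidase of branched fatty acids and bile-acid precursors, was at 60.1 and 84.1 CPM with ethanol and at 12 and 20.7 with 4OHT. This was a log2 change of -2.14 ± 0.31 (SE, n = 2 per group, adjusted p = 0.017). Cat, which encodes catalase, was at 705 and 999 CPM with ethanol and 254 and 280 with 4OHT, a log2 change of -1.67 ± 0.20 (adjusted p = 0.012). Ehhadh, the bifunctional enzyme of peroxisomal beta-oxidation, was at 14.1 and 14.2 CPM against 5.22 and 6.11, a log2 change of -1.32 ± 0.21 (adjusted p = 0.020). Levels in the 2 groups did not overlap for any of these genes. The thiolase Acaa1a (-0.76) and Hsd17b4, the other peroxisomal bifunctional enzyme (-0.65), also fell on the log2 scale. Pipox, which oxidises pipecolic acid and sarcosine, had 62 and 100 reads in the ethanol libraries (2.04 and 4.49 CPM) and 1 and 1 read in the 4OHT libraries. It is 1 of the 11, but it passed the count filter through the ethanol libraries alone, so its call is a description. Its ratio of ethanol to 4OHT was 88, with an exact 95% counting interval of 24.0 to 733. With at least 10 counts required in every library it was not tested, and 9 of 40 members (22.5%) and 7.71% of all genes were called.

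Among the mitochondrial members, 3 of 12 beta-oxidation genes fell: Hadhb, Acaa2, the last thiolase of the cycle, and Hadh, the short-chain hydroxyacyl-CoA dehydrogenase. Hadhb was at 131 and 128 CPM with ethanol and at 64.0 and 66.6 with 4OHT, a log2 change of -0.98 ± 0.12 (adjusted p = 0.012). Its partner Hadha changed by -0.42 ± 0.12 and was not called (adjusted p = 0.081). Acsl1, which activates long-chain fatty acids, was at 116 and 127 CPM with ethanol and 49.4 and 38.5 with 4OHT, a log2 change of -1.46 ± 0.17 (adjusted p = 0.012). The carnitine shuttle lost Cpt1a, its entry enzyme, by a log2 change of -0.59, while Crat, carnitine acetyltransferase, was at 0.44 and not called. None of the 3 electron transfer genes was called (log2 -0.36 to -0.04), nor was the ketone body dehydrogenase Bdh1 (-0.91, adjusted p = 0.057). With the replicate number as a block in the edgeR fit, Bdh1 (adjusted p = 0.0015), Hadha (0.018) and Crat (0.019) were called. That fit called 24 of 41 members and 31.5% of all genes.

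Other genes of the pathway, from lists that share no gene with the members, are given next for 2 weeks. Over all genes 5.78% were called lower and 4.03% higher. The list of other mitochondrial oxidation genes is not tallied here, so these lists do not stand for the whole pathway. Of 10 genes of ketone body synthesis and use, 4 fell and 0 rose, among them the transporter Slc16a7, at a mean of 1.91 CPM with ethanol and 0.244 with 4OHT (log2 -2.95). Of 17 other peroxisomal oxidation genes 5 fell, among them Idh1 (-1.52) and Nudt7 (-1.27), and 2 rose. Of 19 genes of fatty acid uptake, activation, droplets and lipolysis 7 fell and 0 rose, including the droplet protein genes Cidec (mean 20.1 against 0.284 CPM) and Cideb (-1.79). Only 1 of 14 peroxin genes was called, Pex13 (-0.75). Fatty acid synthesis had 2 of 10 genes lower, Me1 (-1.13) and Scd2 (-0.93), and the receptor Pparg fell by 0.94.

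Other markers moved beside these genes. The hepatocyte list summed to 356 to 896 CPM in the ethanol libraries and 12.8 to 22.8 in the 4OHT libraries, mostly from Ttr (mean 595 against 11.9 CPM), and of its 5 genes tested Ttr and Apoa1 were called. The leukocyte list summed to 18.6 to 44.8 CPM with ethanol and 10.3 to 13.8 with 4OHT, with Csf1r called lower (-2.58). Endothelial markers summed to 11.6 to 13.7 CPM against 6.11 to 11.7, with Pecam1 called lower (-1.37), 1 of 2 tested, and lung epithelial markers to 8487 to 11282 against 8570 to 10934, with 1 of 8, Scgb1a1, called higher. Fibroblast markers held no called gene, and 2 of 10 ERK output genes rose. Their part in the result was not tested, and in bulk RNA fewer cells of a type and less RNA per cell cannot be told apart. Without 4OHT replicate 1, or without 4OHT replicate 2, 4 members were called in place of 11 (9.76% of members), while calls over all genes went from 9.81% to 2.66% and 2.89%; Ehhadh and Hadhb were not called in either case.

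**Figure D2:**
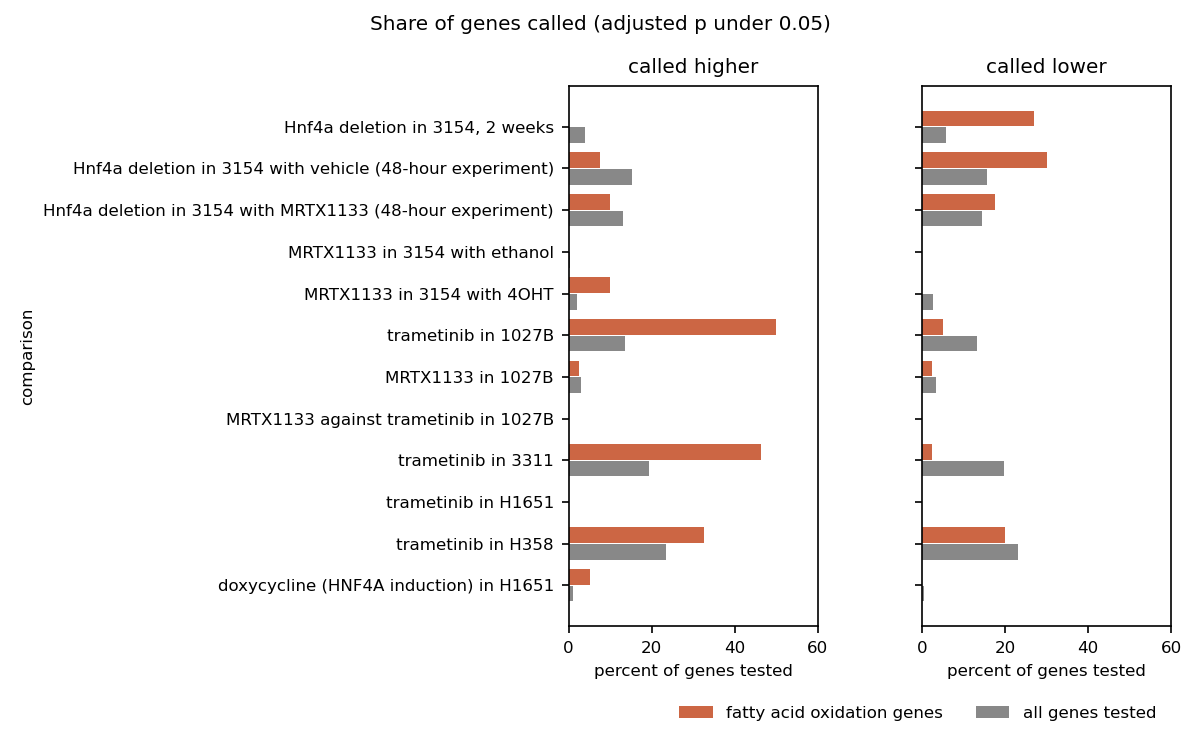
Bars give the percentage of genes called higher (left) and lower (right) at an adjusted p under 0.05, in red for the fatty acid oxidation genes and in grey for all genes tested, in 12 comparisons. The red bar is well beyond the grey one for lower calls at 2 weeks of Hnf4a deletion (26.8% against 5.78%) and for higher calls under trametinib in 1027B (50.0% against 13.5%), and short of it for lower calls in H358 (20.0% against 23.2%).

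In the 48-hour experiment with vehicle, Hnf4a deletion lowered 12 of 40 members tested and raised 3. The 12 are 30% of the members, where 15.7% of all 15458 genes were called lower, and the 3 are 7.50%, where 15.3% were called higher. Their median log2 change was -0.14, and that of all genes 0.01. Acox2 was at 6.65 and 7.13 CPM with ethanol and at 1.14 and 1.74 with 4OHT, a log2 change of -2.27 ± 0.27 (adjusted p = 0.0010). Bdh1, which interconverts acetoacetate and beta-hydroxybutyrate, was at 46.2 and 51.9 CPM against 24.6 and 20.0, a log2 change of -1.14 ± 0.16 (adjusted p = 0.0019). Both genes were lower in every 4OHT library than in any ethanol library. Hadh was at 130 and 109 CPM with ethanol and 60.1 and 58.0 with 4OHT, a log2 change of -1.02 ± 0.13 (adjusted p = 0.0015). Acadm, the medium-chain acyl-CoA dehydrogenase, was at 90.7 and 78.3 CPM against 46.0 and 41.2, a log2 change of -0.95 ± 0.13 (adjusted p = 0.0019). Cat was at 659 and 454 CPM against 290 and 285, also a log2 change of -0.95 ± 0.20 (adjusted p = 0.0089). The others that fell were the thioesterase Acot1 (-0.74), Ehhadh (-0.71), Eci2, an isomerase for unsaturated fatty acids (-0.60), Hadhb (-0.52), Acaa2 (-0.42), Etfa (-0.38) and Acaa1a (-0.36).

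The members that rose in the same libraries were Crat, the droplet coat gene Plin2 and Acox3, a peroxisomal oxidase of branched chains. Crat was at 36.3 and 36.3 CPM with ethanol and at 65.8 and 68.3 with 4OHT, a log2 change of 0.89 ± 0.13 (adjusted p = 0.0023). Plin2 (0.83) was at a mean of 188 CPM with ethanol and 334 with 4OHT, and Acox3 (0.68) at 19.3 and 31.0. Of the 11 members called lower at 2 weeks, 7 were also called lower here (63.6% of the 2-week list and 58.3% of the 12), where 66.1% of all 837 genes lower at 2 weeks and 22.8% of the 2430 lower here were shared, so the first share is near the background. The 7 were Acaa1a, Acaa2, Acox2, Cat, Ehhadh, Hadh and Hadhb. Acsl1, which fell at 2 weeks, changed by -0.13 ± 0.17 and was not called, and Pipox was not tested because its ethanol libraries held 2 reads each. Acox2 stood at a mean of 72.1 CPM in the ethanol libraries of the first experiment and 6.89 in those of the 48-hour experiment, in tables that were scaled separately.

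In the other lists, 5 of 9 ketone body genes fell and 0 rose, among them the transporter Slc16a1 (-1.05) and Oxct1, which activates acetoacetate for use (-0.89). Over all genes 15.7% were called lower and 15.3% higher. Of 16 other mitochondrial oxidation genes 5 fell, led by Acsf2 (-1.96) and Hsd17b10 (-0.97), and 1 rose. Of 18 other peroxisomal oxidation genes 5 fell, led by Nudt7 (-1.55), Pecr (-1.27) and Idh1 (-1.23), and 2 rose. Lung epithelial markers summed to 6800 to 9225 CPM with ethanol and 8596 to 10002 with 4OHT, with 3 of 8 called higher, among them Scgb1a1, a club cell marker (mean 51.0 against 529 CPM), and the summed hepatocyte list went from 6.52 to 11.2 CPM down to 1.34 to 2.16; their part in the result was not tested. Without 4OHT replicate 1, 6 members were called in place of 15, and without 4OHT replicate 2, 5. These are 15% and 12.5% of the members, where 12.2% and 10.4% of all genes were called, which is near the background; Cat was not called in either case.

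With MRTX1133 present, deletion lowered 7 of 40 members and raised 4. These are 17.5% and 10.0%, where 14.5% of all genes were called lower and 13.2% higher, so both shares lie near the background. Over the members the median log2 change was -0.04, and over all genes -0.01. Acox2 was at 7.81 and 8.12 CPM in ethanol and 1.70 and 2.38 in 4OHT, a log2 change of -1.96 ± 0.25 (adjusted p = 0.0014). Bdh1 was at 36.7 and 43.0 CPM against 16.4 and 16.1, a log2 change of -1.29 ± 0.16 (adjusted p = 0.0012). Cat was at 645 and 526 CPM against 237 and 279, a log2 change of -1.18 ± 0.20 (adjusted p = 0.0041). Acot1, which hydrolyses long-chain acyl-CoA in the cytosol, was at 49.9 and 47.0 CPM against 29.1 and 25.3, a log2 change of -0.83 ± 0.13 (adjusted p = 0.0035). The groups did not overlap for any of these genes. Acox3 went the other way, from 28.6 and 22.9 CPM to 53.5 and 59.2, a log2 change of 1.13 ± 0.15 (adjusted p = 0.0017), as did Crat, from 43.0 and 37.3 CPM to 74.9 and 81.5 (0.96 ± 0.13, adjusted p = 0.0017). Acadm (-0.67), Hadh (-0.65) and Eci2 (-0.45) also fell, and Plin2 (0.79) and Decr1, a reductase for unsaturated fatty acids (0.52), rose. The hepatocyte list summed to 10.2 to 11.3 CPM with ethanol and 1.92 to 1.97 with 4OHT (2 of 3 genes tested lower), and the leukocyte list to 3.10 to 6.43 against 10.1 to 10.4 (1 of 4 higher). Endothelial markers summed to 1.85 to 2.45 CPM against 4.49 to 4.51 (1 of 2 higher), fibroblast markers to 91.8 to 143 against 99.1 to 99.2 (1 of 2 higher), and lung epithelial markers to 11372 to 14315 against 13693 to 18090 (2 of 8 higher). Their part in the result was not tested. Without the first or the second 4OHT library with MRTX1133, 7 members (17.5%) were called in place of 11, where 11.4% and 10.9% of all genes were.

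**Figure D3:**
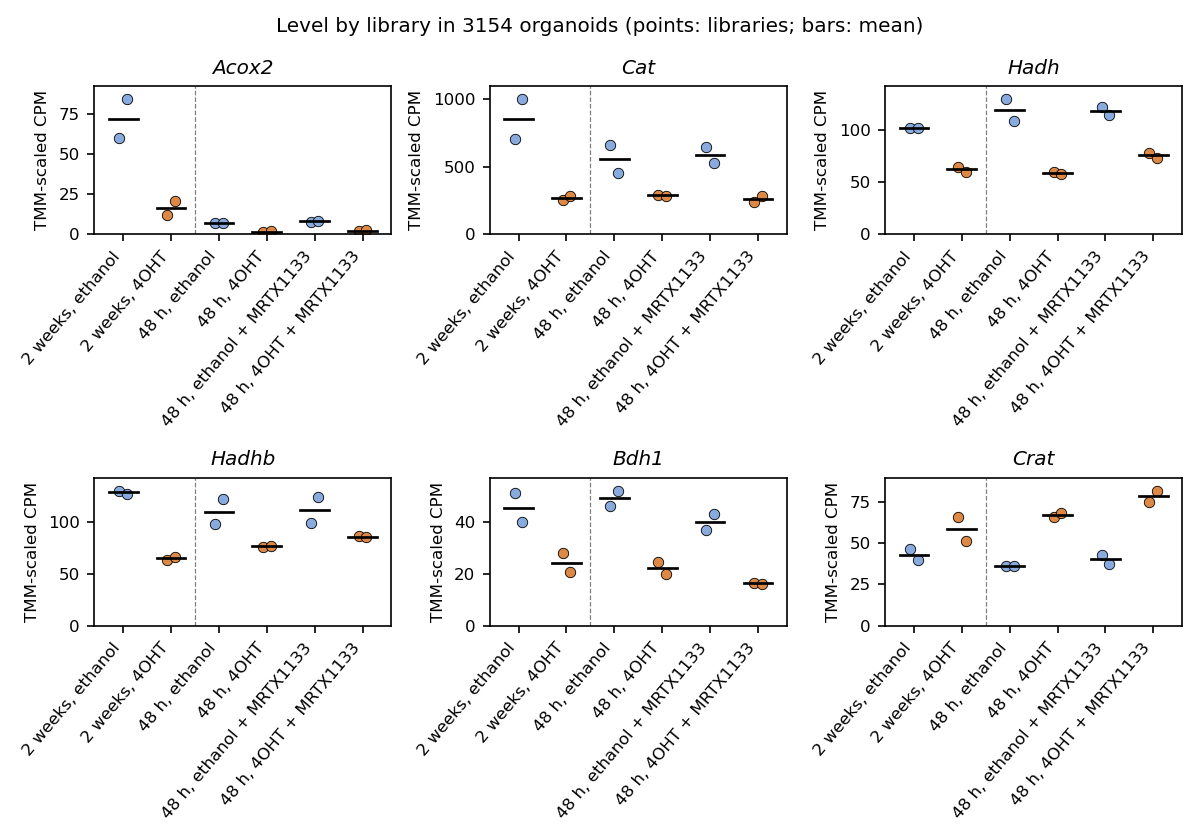
Each panel plots TMM-scaled CPM of a gene in every 3154 library (points; blue ethanol, orange 4OHT) with the group mean (bar); the dashed line parts the 2-week table from the 48-hour table, which were scaled separately. Acox2, Cat, Hadh, Hadhb and Bdh1 have lower means with 4OHT in each experiment, and Crat has higher means (43.0 against 58.4 CPM at 2 weeks, not called).

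MRTX1133 at 3 nM changed few genes in 3154 organoids with intact Hnf4a, and no member was called. Of all 15458 genes 0.317% were called higher and 0.0323% lower by edgeR. Among the 40 members 4 were higher at an unadjusted p under 0.05, where 7.12% of all genes were, and DESeq2 called 0 members and 2.26% of all genes. The largest log2 changes were those of Acot2, a mitochondrial thioesterase (0.77 ± 0.20, adjusted p = 0.19), and Acaa2 (0.50 ± 0.13, adjusted p = 0.19).

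With 4OHT, MRTX1133 raised 4 of 40 members and lowered 0. The 4 are 10.0%, where 2.1% of all genes were called higher and 2.54% lower; 2 members were lower at an unadjusted p under 0.05 (10.1% of all genes), and DESeq2 called 7 higher and 0 lower (4.05% of all genes higher). Acot2 was at 9.75 and 8.66 CPM with vehicle and at 19.1 and 16.7 with MRTX1133, a log2 change of 0.96 ± 0.20 (adjusted p = 0.038). Acox3 was at 30.8 and 31.2 CPM against 53.5 and 59.2, a log2 change of 0.86 ± 0.15 (adjusted p = 0.026). Acaa1a was at 69.7 and 68.1 CPM against 114 and 109, a log2 change of 0.70 ± 0.12 (adjusted p = 0.025). Acaa2 was at 85.3 and 79.9 CPM against 135 and 124, a log2 change of 0.65 ± 0.13 (adjusted p = 0.035). For all 4 genes the MRTX1133 libraries lay above the vehicle libraries. In the same libraries Hnf4a was at 49.4 and 50.4 CPM with vehicle and 25.3 and 29.8 with MRTX1133, a log2 change of -0.86 ± 0.13 (adjusted p = 0.018), and 3 of 10 ERK output genes fell. Lung epithelial markers summed to 8596 to 10002 CPM against 13693 to 18090, with Sftpc called higher and Sftpb lower of 8 tested. Leukocyte (5.57 to 7.01 against 10.1 to 10.4 CPM) and endothelial markers (2.39 to 3.35 against 4.49 to 4.51) had higher sums with no called gene, and fibroblast and hepatocyte markers held none either. Their part in the result was not tested. Without any of the 4 libraries compared, 0 members and at most 0.143% of all genes were called, and with these groups fitted alone 17 were called higher and 2 lower, where that fit called 13% of all genes higher and 13.4% lower.

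Whether MRTX1133 acted differently with 4OHT than with ethanol was tested by the interaction of 4OHT and MRTX1133. No member was called, and 0% of all genes were called higher and 0% lower by edgeR; 1 member had an unadjusted p under 0.05, as had 7.44% of all genes, and DESeq2 called 0. Acaa1a had the smallest adjusted p of the members (0.60), with an interaction of 0.45 ± 0.16 on the log2 scale. The differences between the 2 MRTX1133 comparisons above, and between the 2 deletion comparisons of the 48-hour experiment, were therefore not detectable in 2 libraries per group.

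Trametinib raised 20 of 40 members tested in 1027B organoids and lowered 2. The 20 are 50.0%, where 13.5% of all 14555 genes were called higher; the 2 are 5%, where 13.2% were called lower. With the replicate number as a block 26 were called higher and 5 lower, where that fit called 21.9% of all genes higher and 23% lower. The median member changed by 0.45 on the log2 scale, and the median of all genes by -0.01. The ERK output list, which follows the activity of the kinase below MEK, had 9 of 10 genes lower and 0 higher.

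The carnitine shuttle had 3 of 4 genes higher in 1027B. Crat was at 47.0 and 46.1 CPM with vehicle and at 108 and 107 with trametinib, a log2 change of 1.21 ± 0.09 (adjusted p = 0.00080). Slc25a20, the carnitine-acylcarnitine carrier of the inner membrane, was at 17.3 and 14.7 CPM against 35.7 and 37.8, a log2 change of 1.20 ± 0.15 (adjusted p = 0.0030). Cpt1a was at 53.0 and 49.6 CPM against 120 and 92.9, a log2 change of 1.05 ± 0.14 (adjusted p = 0.0039). Each of the 3 lay higher in both trametinib libraries than in any vehicle library, while Cpt2, the inner-membrane acyltransferase, changed by -0.06 and was not called.

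Of 12 mitochondrial beta-oxidation genes 7 rose in 1027B and Acadm fell. Acaa2 was at 72.6 and 119 CPM with vehicle and 241 and 270 with trametinib, a log2 change of 1.41 ± 0.27 (adjusted p = 0.011), the largest rise of a called member. Eci1 (0.98), Decr1 (0.79), Acadvl, the very-long-chain dehydrogenase (0.71), Hadh (0.54), Hadha (0.47) and Hadhb (0.38) also rose, and Acadm was at -0.62. All 3 electron transfer genes rose: Etfdh, the ubiquinone oxidoreductase (0.45), Etfb (0.45) and Etfa (0.34). Of 12 peroxisomal genes tested 6 rose and 0 fell: Acox3, Acaa1a, Scp2, a thiolase and lipid transfer protein, Hsd17b4, Decr2 and Phyh, the first enzyme of phytanic acid alpha-oxidation. Acox3 was at 17.4 and 17.8 CPM against 42.1 and 34.7, a log2 change of 1.12 ± 0.14 (adjusted p = 0.0027). Cat, at 521 and 825 CPM against 693 and 741, overlapped between groups (0.09, adjusted p = 0.79).

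Acsl5, an acyl-CoA synthetase that is abundant in intestine, was the other member called lower beside Acadm. It was at 813 and 848 CPM with vehicle and at 392 and 397 with trametinib, a log2 change of -1.07 ± 0.10 (adjusted p = 0.0012). Of the thioesterases Acot2 rose (1.01), and Bdh1 was at -0.33 and not called (adjusted p = 0.11, and 0.036 with the replicate block).

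Of 17 genes of uptake, activation, droplets and lipolysis 7 fell and 1 rose, led by Fabp4 (-3.79), the transporter Cd36 (-2.39) and Fabp5 (-1.77). Among 17 other mitochondrial oxidation genes 6 rose and 1 fell, led by Acad12 (1.71), Cpt1c (1.64) and Acad10 (1.09). Of 9 ketone body genes 3 rose and 2 fell, among them Bdh2 (1.43) and the transporter Slc16a6 (-2.74). Other peroxisomal oxidation genes were mixed (2 higher, 4 lower of 15), and 2 of 14 peroxin genes rose. Over all genes 13.5% were called higher and 13.2% lower, so the rises of both lists are near the background. The nuclear receptor gene Hnf4a itself was lower, at 446 and 471 CPM against 254 and 200, a log2 change of -1.01 ± 0.15 (adjusted p = 0.0053). Lung epithelial markers summed to 6738 to 10797 CPM with vehicle and 2577 to 3121 with trametinib; of 8 tested 4 were called higher and 3 lower, among them Sftpc (mean 65.7 against 1058 CPM) and Sftpb (7899 against 991). Endothelial markers summed to 2.86 to 3.95 CPM against 8.10 to 10.0, with Vwf, the 1 gene tested, called higher. Leukocyte markers summed to 8.57 to 8.99 CPM against 7.88 to 8.59, with Csf1r called higher and Ptprc lower of 4 tested. Hepatocyte (15.7 to 54.3 against 22.4 to 156 CPM) and fibroblast markers (2.28 to 3.68 against 2.05 to 2.19) held no called gene. Their part in the result was not tested.

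MRTX1133 at 20 nM gave fewer calls in the same table: 1 member rose and 1 fell of 40. Numbers of calls do not test the difference between the drugs, which is compared directly below. These are 2.5% each, where 3.01% of all genes were called higher and 3.26% lower, which is near the background. Acsl5 was at 545 and 531 CPM with MRTX1133 and 813 and 848 with vehicle, a log2 change of -0.63 ± 0.10 (adjusted p = 0.019). Crat was at 64.9 and 66.7 CPM against 47.0 and 46.1, a log2 change of 0.50 ± 0.09 (adjusted p = 0.030). The median was 0.24 over the members and 0.01 over all genes. Same-numbered libraries of 1027B deviated together, and with the replicate number as a block 17 members were called, 14 higher and 3 lower, where that fit called 11.4% of all genes higher and 12.7% lower. The 14 included Acaa2 (0.84, adjusted p = 0.0019 with the block), Eci1 (0.61), Cpt1a (0.53) and Slc25a20 (0.67). Hnf4a was at 298 and 242 CPM with MRTX1133, against 446 and 471 with vehicle, a log2 change of -0.76 ± 0.15 (adjusted p = 0.037), and 6 of 10 ERK output genes fell. Lung epithelial markers summed to 6738 to 10797 CPM with vehicle and 3289 to 4960 with MRTX1133, with Sftpc called higher and Lamp3 lower of 8 tested. Endothelial markers summed to 4.57 to 7.13 CPM with MRTX1133 (2.86 to 3.95 with vehicle), leukocyte markers to 6.88 to 6.95 (8.57 to 8.99), hepatocyte markers to 41.6 to 103 (15.7 to 54.3) and fibroblast markers to 1.34 to 2.49 (2.28 to 3.68), with no gene of these called. Their part in the result was not tested. Without any of the 4 libraries compared, 0 members and 0.91% to 2.3% of all genes were called, and DESeq2 called 9 (11.4% of all genes).

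Both drugs were compared in the same table. MRTX1133 against trametinib gave no called member, and 0% of all genes were called higher and 0% lower by edgeR; 15 members had an unadjusted p under 0.05 (16.2% of all genes), 13 of them lower with MRTX1133 (7.82% of all genes). DESeq2 called 5 members and 5.33% of all genes. With the replicate block 14 members were called, 12 lower with MRTX1133 and 2 higher, where 6.33% of all genes were called lower and 7.75% higher. Crat was at a mean of 107 CPM with trametinib and 65.8 with MRTX1133 (log2 -0.71 ± 0.09, adjusted p = 0.076, and 0.0017 with the block). Phyh was at 116 and 76.5 CPM (-0.60 ± 0.10, adjusted p = 0.082, and 0.0028 with the block), and Acsl5 was higher with MRTX1133 (0.45, adjusted p = 0.0043 with the block). Comparisons with vehicle and between the drugs share libraries, so these counts are not independent.

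**Figure D4:**
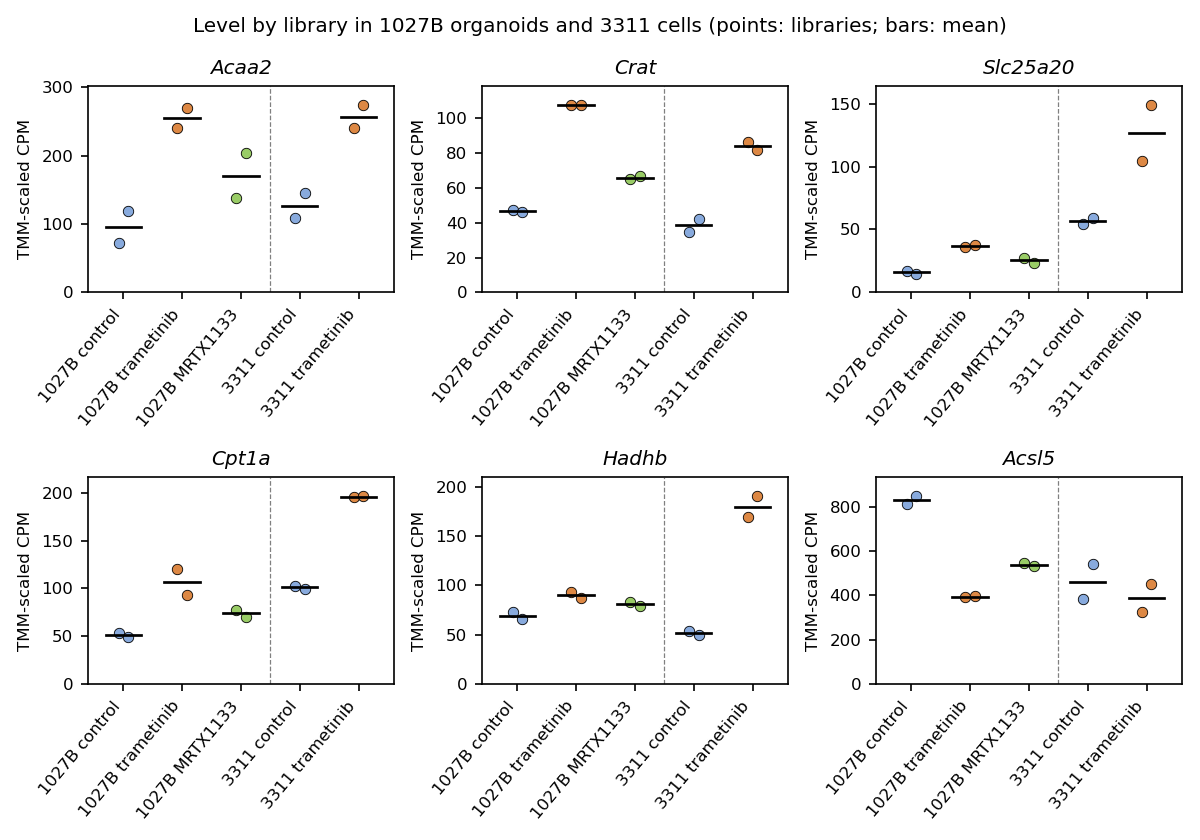
Each panel plots TMM-scaled CPM of a gene in every library (points; blue control, orange trametinib, green MRTX1133) with the group mean (bar); the dashed line parts 1027B from 3311, whose tables were scaled separately. Crat, Slc25a20, Cpt1a and Acaa2 lie higher in every trametinib library of both cultures, Hadhb rises most in 3311, and Acsl5 is lower in 1027B (830 to 394 CPM) and overlaps between groups in 3311.

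In 3311 cells, 50 nM trametinib raised 19 of 41 members and lowered 1. The 19 are 46.3%, where 19.4% of all 15224 genes were called higher, and the 1 is 2.44%, where 19.6% were called lower. The median member changed by 0.42 and the median of all genes by 0.01. All 10 genes of the ERK output list fell. Hadhb was at 53.3 and 49.6 CPM with vehicle and at 169 and 190 with trametinib, a log2 change of 1.80 ± 0.14 (adjusted p = 0.00044). Hadha, its neighbour, was at 172 and 165 CPM against 286 and 294 (0.79 ± 0.13, adjusted p = 0.0048). The ratio of the 2 subunits' changes was not tested.

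All 4 carnitine shuttle genes rose in 3311. Slc25a20 was at 54.3 and 58.7 CPM with vehicle and 104 and 149 with trametinib, a log2 change of 1.16 ± 0.19 (adjusted p = 0.0045). Crat was at 34.7 and 42.3 CPM against 86.4 and 81.8, a log2 change of 1.13 ± 0.15 (adjusted p = 0.0021). Cpt1a (0.96) and Cpt2 (0.62) rose as well. Acaa2 was at 109 and 145 CPM against 240 and 274, a log2 change of 1.02 ± 0.18 (adjusted p = 0.0057). With Hadha, Hadhb, Acadvl (0.50) and Acad11, a dehydrogenase of long and branched chains (0.69), it made 5 of 12 beta-oxidation genes higher and 0 lower. All 3 electron transfer genes rose (0.68 to 0.76).

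Of 13 peroxisomal genes in 3311, 5 rose and 1 fell. Amacr, the racemase of branched-chain acyl-CoA, was at 7.25 and 13.6 CPM with vehicle and 22.0 and 20.5 with trametinib, a log2 change of 1.03 ± 0.30 (adjusted p = 0.033). Cat (1.00), Acox3 (0.96), Hsd17b4 (0.82) and Decr2 (0.63) also rose. The import receptor Pex5 was the member that fell (-0.61, adjusted p = 0.020). Bdh1 was low in this line, at 0.483 and 0.836 CPM with vehicle (13 and 21 reads) and 2.62 and 2.24 with trametinib (73 and 59 reads), a log2 change of 1.88 ± 0.44 (adjusted p = 0.016). It was not called without vehicle replicate 1 or without trametinib replicate 1 (largest adjusted p = 0.066). No thioesterase was called.

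Of 13 PPAR regulators and targets tested in 3311, 3 rose and 2 fell, with a median log2 change of -0.08. Ppargc1a, a coactivator of mitochondrial genes, was at a mean of 4.98 CPM with vehicle and 82.8 with trametinib (log2 4.06), Vnn1, a PPARA target, rose by 3.85 and Esrra by 0.66, while Txnip (-2.20) and Pdk4 (-1.09) fell. Of 20 genes of uptake, activation, droplets and lipolysis 6 rose and 4 fell, with a median of -0.16, among them Fabp3 (3.63), Hilpda (-2.40) and Fabp2 (1.74). The falls of this list are at the share over all genes and the rises a little above it. Fatty acid synthesis had 4 of 10 genes lower, led by Acacb (-1.80), Me1 (-1.46) and Scd1 (-1.45). Of 10 ketone body genes 1 rose and 4 fell, among them Acss1 (-1.33) and Acat1 (-0.55). Other mitochondrial oxidation genes were mixed, with 5 of 17 higher and 2 lower, Hsd17b10 (-1.46) and Acsf2 (-1.15). Hnf4a was at 374 and 479 CPM with vehicle and at 263 and 390 with trametinib and was not called (adjusted p = 0.21). Lung epithelial markers summed to 4464 to 5116 CPM with vehicle and 464 to 566 with trametinib; of 3 tested Sftpb fell (mean 4573 against 323 CPM) and Scgb1a1 rose (2.66). Fibroblast markers summed to 21.7 to 26.5 CPM against 18.5 to 19.0 (2 higher and 1 lower of 4 tested), and leukocyte markers to 9.55 to 15.9 against 21.8 to 28.6, with Csf1r called higher and Cd68 lower. Hepatocyte markers summed to 983 to 1279 CPM against 395 to 981, with 1 of 6 tested, Cps1, called higher. Their part in the result was not tested.

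In all, 13 members were called higher by trametinib in each of the 2 mouse cultures, which is 65.0% of the 1027B list and 68.4% of the 3311 list. Of all genes called higher, 841 were shared, 42.8% of those in 1027B and 28.5% of those in 3311. They are Acaa2, Acadvl, Acox3, Cpt1a, Crat, Decr2, Etfa, Etfb, Etfdh, Hadha, Hadhb, Hsd17b4 and Slc25a20. The doses differed (10 and 50 nM), as did the culture format, and no member was called in opposite directions, where 4.64% of all genes higher and 4.54% of all genes lower in 1027B were, which is near the background. Of the 11 members lower after 2 weeks of Hnf4a deletion, 6 were higher with trametinib in 1027B (54.5%, where 12.9% of the 837 genes lower at 2 weeks were) and 5 in 3311 (45.5%, where 16.6% were), among them Acaa2, Cpt1a, Hadhb and Hsd17b4 in each. Of all members tested, 50.0% were higher in 1027B and 46.3% in 3311. The members lower after deletion were therefore raised about as often as the members in general. Levels without trametinib also differed by gene: Pipox was at 1.02 and 1.95 CPM in 1027B vehicle libraries and 19.7 and 31.2 in 3311, in separately scaled tables. In 1027B, leaving out any of the 4 libraries left 10 to 14 members called in place of 22: 12 without vehicle replicate 1, 14 without vehicle replicate 2, 10 without trametinib replicate 1 and 13 without trametinib replicate 2. Calls over all genes went from 26.7% to between 8.83% and 18.2% in these fits, beside 25% to 35% of the members.

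In H358 cells, which had no HNF4A reads, 20 nM trametinib raised 13 of 40 members and lowered 8. These are 32.5% and 20.0%, where 23.5% of all 18972 genes were called higher and 23.2% lower, so the lower share is near the background. The median member changed by 0.17 and the median of all genes by 0.02, and all 10 ERK output genes fell. ACOX2 was at 4.92 and 5.55 CPM with vehicle (190 and 186 reads) and at 0.451 and 0.118 with trametinib (21 and 3 reads). It is 1 of the 8, but it passed the count filter through the vehicle libraries, and with at least 10 counts required in every library it was not tested, so its call is a description. ACSL1 was at 123 and 115 CPM against 280 and 284, a log2 change of 1.24 ± 0.10 (adjusted p = 5.9e-05). SLC25A20 was at 7.17 and 6.87 CPM against 16.8 and 14.7, a log2 change of 1.17 ± 0.16 (adjusted p = 0.00061). The groups did not overlap for these 3 genes.

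Of 17 H358 genes of uptake, activation, droplets and lipolysis 9 fell and 2 rose, with a median log2 change of -0.40, led by MGLL (-1.97), G0S2 (-1.90) and FABP5 (-1.56). ABHD5, the coactivator of the droplet lipase, was at 32.2 and 34.4 CPM with vehicle and 59.9 and 76.7 with trametinib, a log2 change of 1.03 ± 0.14 (adjusted p = 0.00068), and PNPLA2, that lipase, rose by 0.46. ETFB was at 86.9 and 98.8 CPM against 42.5 and 50.1, a log2 change of -1.01 ± 0.13 (adjusted p = 0.00045), and ETFA fell by 0.51. BDH1 was at 12.7 and 13.3 CPM against 5.95 and 6.05, a log2 change of -1.11 ± 0.16 (adjusted p = 0.00080). HADHB rose by 0.56 ± 0.10 (adjusted p = 0.0029) while HADHA fell, with a log2 change of -0.29 ± 0.10 (adjusted p = 0.038). Of 12 beta-oxidation genes 3 rose (ACADS 0.86, DECR1 0.76 and HADHB) and 4 fell (ACAA2 -0.66, HADH -0.54, ECI2 -0.42 and HADHA). Over all genes 23.5% were called higher and 23.2% lower, so these counts are near the background. Of 12 peroxisomal genes 6 rose, among them PEX11A, a peroxisome division gene (0.94), CAT (0.83) and SCP2 (0.77), and ACOX2 was the 1 called lower.

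Transcripts of fatty acid synthesis genes went lower in the same libraries, where 23.2% of all genes were called lower and 23.5% higher. Of 9 fatty acid synthesis genes 8 fell and 0 rose, led by FASN, at a mean of 3080.2 CPM with vehicle and 770 with trametinib (log2 -2.0), and SCD (-1.80). Of 18 other peroxisomal oxidation genes 10 rose, led by ABCD2 (3.10), BAAT (2.41) and EPHX2 (1.64), and 5 fell. PPARGC1A (2.27) and PPARA (1.85) rose, and ANGPTL4, a PPAR target, was at a mean of 3.41 CPM with vehicle and 0.113 with trametinib. With trametinib ANGPTL4 was near the floor of 3 counts (0.0645 and 0.118 CPM), so its value is a description. Epithelial markers summed to 5680 to 5964 CPM with vehicle and 4073 to 4319 with trametinib (3 of 6 lower, 1 higher), and lung epithelial markers to 123 to 137 against 180 to 186 (3 of 4 higher). Fibroblast markers summed to 42.4 to 51.5 CPM with vehicle and 247 to 349 with trametinib, with 4 of 7 tested called higher, among them LUM (4.02) and COL3A1 (3.41), and endothelial markers to 13.9 to 15.6 against 28.3 to 28.5, with 2 of 5 higher; their part in the result was not tested.

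In H1651 with 20 nM trametinib edgeR without a replicate block called no member. Of all 18277 genes 0% were called higher and 0% lower by that fit. At an unadjusted p under 0.05, 2 of 39 members were higher (1.48% of all genes), and DESeq2 called 0 members and 47 of all genes. Same-numbered libraries deviated together (correlation of 0.62 over 1 pair of groups). With the replicate number as a block 7 members were called, 6 higher and 1 lower, where 4.90% of all genes were called higher and 5.39% lower. Member changes ran from -0.31 to 0.48 on the log2 scale, with a median of 0.09. The ERK output list had a median change of -1.83 and was not called without the block either, so changes of the size seen in 1027B could be missed in this table. SLC25A20 was at 17.3 and 17.3 CPM with vehicle and 17.9 and 20.3 with trametinib, and CRAT at 48.3 and 42.5 against 52.0 and 44.6.

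**Figure D5:**
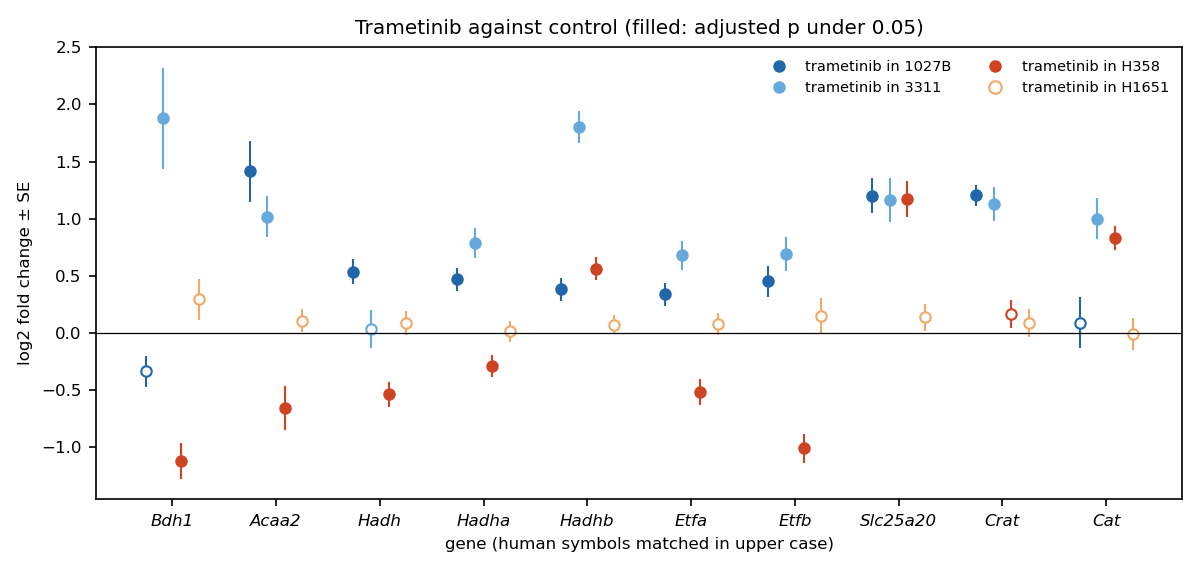
Points give the log2 fold change (y axis) with its standard error for 10 genes (x axis) under trametinib in 4 cultures; filled points are called at an adjusted p under 0.05. Slc25a20 changed by 1.16 to 1.20 in 1027B, 3311 and H358, whereas Acaa2, Etfa, Etfb and Hadha lie above 0 in both mouse cultures and below 0 in H358.

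HNF4A induction in H1651 addressed the reverse of deletion, but doxycycline itself and the rise of HNF4A cannot be told apart in these libraries. HNF4A was at 47.1 and 35.9 CPM without doxycycline and at 94.4 and 96.8 with it, a log2 change of 1.20 ± 0.13 (adjusted p = 0.0098). Of 39 members tested 2 rose, 5.13%, where 1.04% of all 17351 genes were called higher. None fell, where 0.386% of all genes were called lower; 2 members were lower at an unadjusted p under 0.05 (5.89% of all genes), and DESeq2 called 4 higher and 0 lower (1.58% of all genes higher). PIPOX was at 1.40 and 1.07 CPM without doxycycline (34 and 28 reads) and at 10.9 and 11.3 with it (277 and 257 reads), a log2 change of 3.17 ± 0.20 (adjusted p = 0.0015). EHHADH was at 29.0 and 29.1 CPM against 46.2 and 44.9, a log2 change of 0.65 ± 0.08 (adjusted p = 0.015). Ehhadh was also called lower 2 weeks after deletion in 3154, where Pipox had the low read counts given above.

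Other members lower after deletion were not called on induction. CAT changed by 0.14 ± 0.14, HADHB by -0.26 ± 0.07, ACAA2 by 0.07 ± 0.08 and ACSL1 by -0.62 ± 0.20, and ACOX2, at a mean of 0.0779 and 0.253 CPM, was not tested. SLC25A20 (0.58, adjusted p = 0.063) and CPT1A (0.47, adjusted p = 0.088) were the nearest to a call. In the uptake and droplet list FABP2, an intestinal fatty acid binding protein, rose from a mean of 0.0191 to 4.16 CPM and CD36 fell by 1.45. APOA1, in the hepatocyte list, rose from a mean of 0.138 to 24.4 CPM. The ketone body list, with 10 genes tested, had 0 called (log2 -0.28 to 0.53). Fibroblast markers summed to 675 to 768 CPM without doxycycline and 418 to 461 with it, with COL3A1 (-0.84) among 2 of 7 called lower, and their part in the result was not tested. Without doxycycline replicate 2, 4 members (10.3%) were called in place of 2, and 2.24% of all genes.

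Some mouse members share sequence or exons with neighbours in the GENCODE M21 annotation, where the counting could not separate them. Of the exon bases of Etfb, 58.2% lie in the same-strand transcript Gm45233, and of those of Acadvl 42.9% lie opposite Dvl2, which matters only if the counting ignored strand. Copies of 52.8% of the Scp2 transcript lie in Gm47162 and Scp2-ps2, and of 21.4% of the Acaa1a transcript in Acaa1b. The values of these genes are uncertain to that extent.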

How the data were processed

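RNA was measured by poly(A)-selected, strand-marked, paired-end sequencing, per the labels' protocols. The deposited tables hold raw read counts per gene; the submitters' processing notes name cutadapt 3.5, STAR 2.7.6a and featureCounts 1.6.3, and the builds mm10, mm39 and hg38, without saying which table used which. The strand setting of the counting is not given in the sources used here. The libraries' totals of 19692517 to 45284286 counts and the 2 libraries per group limit the precision.

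Each of 7 tables was fitted on its own, with all its groups, in R 4.3.3 with edgeR 4.0.16 (filterByExpr, TMM scaling, quasi-likelihood F test) and Benjamini-Hochberg adjustment over all genes tested. Standard errors are the log2 fold change over the square root of F. The floor is 3 counts per library, and intervals cover counting error only. Tested on simulated data, the fit recovered most changed genes, and the share of unchanged genes among its calls was above the nominal level in every table but that with doxycycline. Alternatives were DESeq2 1.42.0, RLE scaling, no count filter, at least 10 counts in every library, a replicate block, only the 2 groups compared, and each library left out in turn. Same-numbered 1027B libraries deviated together (correlations of 0.24 to 0.41 over 3 pairs of groups), so for 1027B the blocked values are given where they change a count by over 1.5 times. Blocked calls of the 2-week deletion and of trametinib in H1651 (correlations of 0.43 and 0.62, each over 1 pair of groups) are given beside the main ones. The 3311 columns were matched to samples by their names. Up to 6 called members with the largest log2 fold change per comparison are given by library, and up to 3 called genes per other list are named. The members, lists and this rule were chosen with earlier results of these data known. Some named items, an allele among them, are not reported here.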

Additional observations from a re-analysis of the deposited data

Results flagged for a closer look

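Genes called in opposite directions under trametinib are given here as values. The differences were not tested, and the cultures differ in species and dose (10 nM for 1027B, 50 nM for 3311 and 20 nM for H358). The thiolase Acaa2 had a log2 fold change of 1.41 in 1027B and 1.02 in 3311, and ACAA2 was at -0.66 in H358. For the electron transfer flavoprotein, Etfa was at 0.34 in 1027B and 0.68 in 3311 and ETFA at -0.51 in H358. Its other subunit Etfb was at 0.45 in 1027B and 0.69 in 3311, and ETFB was at -1.01 in H358. Hadha was at 0.47 in 1027B and 0.79 in 3311, and HADHA at -0.29 in H358. Hadh was at 0.54 in 1027B and HADH at -0.54 in H358. The ketone body dehydrogenase Bdh1 was at 1.88 in 3311, from 13 and 21 reads in the vehicle libraries, and BDH1 was at -1.11 in H358.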

How the results depend on the processing

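The 44 values of members given by library (up to 6 called per comparison) kept their direction under every alternative that tested them (Pipox at 2 weeks and ACOX2 in H358 were not tested with at least 10 counts in every library); other member values named were not followed singly. The median of the members for the deletion with MRTX1133, -0.04, was 0.02 without the first ethanol library with MRTX1133. Total counts of members called moved by over 1.5 times as follows. With the replicate block they were 24 for the 2-week deletion, 17 for MRTX1133 in 1027B, 14 for MRTX1133 against trametinib, 7 for trametinib in H1651 and 15 for doxycycline. Calls over all genes rose as well under the block, to 31.5%, 24.1%, 14.1%, 10.3% and 17.6% in the same order. The block changed no other total by that much; by direction, members lower with trametinib went from 2 to 5 in 1027B and from 1 to 2 in 3311, with MRTX1133 in 1027B from 1 to 3, with trametinib in H1651 from 0 to 1 and with doxycycline from 0 to 3 (HADHB, ACADM and ACSL1), and members higher at 2 weeks from 0 to 1. With doxycycline 1 member was also lower without control replicate 2 and without doxycycline replicate 1. Outside 1027B the numbers were treated as shared only: same-numbered deviations correlated at 0.62 for trametinib in H1651, 0.43 at 2 weeks, 0.32 in H358 and with doxycycline and 0.13 in 3311, each over 1 pair of groups, and at -0.25 to 0.55 in the 48-hour 3154 table. With DESeq2 they were 7 for MRTX1133 with 4OHT, 9 for MRTX1133 in 1027B, 5 for MRTX1133 against trametinib and 4 for doxycycline (9.13%, 11.4%, 5.33% and 2.4% of all genes). With only the 2 groups compared they were 19 for MRTX1133 with 4OHT and 1 for MRTX1133 in 1027B (26.5% and 4.45% of all genes). The cause was not tested. With each library left out in turn, the counts ranged from 4 to 13 for the 2-week deletion, 5 to 15 for the deletion with vehicle, 7 to 10 for the deletion with MRTX1133, 10 to 14 for trametinib in 1027B and 2 to 4 for doxycycline, and were 0 for MRTX1133 with 4OHT and for MRTX1133 in 1027B. Fewer samples enter each of these fits, and calls over all genes ranged from 2.66% to 18.7%, 10.4% to 37%, 10.9% to 17.4%, 8.83% to 18.2% and 1.28% to 2.27% in the first 5. Of 176 values of named members with a library left out, all kept their direction and 32 were no longer past the threshold. RLE scaling, no count filter and at least 10 counts in every library left every total of members called within 1.5 times.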
